A study of Mus musculus with 6 samples.

Results

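The platelet-derived growth factor (PDGF) genes followed here were 5: the receptor genes Pdgfra and Pdgfrb and the ligand genes Pdgfa, Pdgfb and Pdgfc. They were found by symbol among the 54532 Ensembl gene IDs of the count tables, and all 5 passed the filter on low counts. The samples were heads of mouse embryos at embryonic day 8.5, collected before any change of form could be seen, in pools of 3 heads. There were 3 pools from embryos with Sf3b4 deleted in neural crest cells (genotype entry Sf3b4 NCC mutant) and 3 pools from Sf3b4 wild-type embryos (WT). SF3B4 is a subunit of the particle that recognises the branch site of introns. The sample titles call the mutants homozygous null embryos, whereas the genotype entries restrict the loss to neural crest. No source used here gives the Cre line.

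PDGF ligands are secreted dimers that bring receptor tyrosine kinases together at the cell surface. The activated receptors recruit PI3-kinase, phospholipase C gamma, SRC kinases and adaptors of the RAS pathway. PDGFRA binds PDGF-A and PDGF-C, and the mouse face needs it in crest-derived mesenchyme: embryos without Pdgfra, and embryos without both Pdgfa and Pdgfc, develop facial clefts. PDGFRB is best known as the receptor through which endothelial PDGF-B recruits pericytes. In the early head, Pdgfra is a gene of mesenchyme, while Pdgfa and Pdgfc are expressed largely in the epithelia that face it.

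The promoter stretches of Pdgfra, Pdgfa and Pdgfc are shown. Pdgfra and Pdgfa are the members that changed, and Pdgfc is a further ligand gene of this receptor that did not pass. The RefSeq promoter table (GRCm38.p6) matched these 3 members. The letters run 5′ to 3′ and stop at the RefSeq start or at the first annotated exon base of the gene itself. Capitals mark CpG dinucleotides. The Pdgfra stretch is chr5:75152001-75152250 on the plus strand, the Pdgfa stretch is chr5:138995038-138995194 on the minus strand, and the Pdgfc stretch is chr3:81036166-81036415 on the plus strand. The Pdgfa stretch precedes the first exon of a shorter isoform. It lies inside the annotated gene, whose longest extent begins at 138997370, and from 138995056 on it overlaps an exon of the opposite-strand transcript 6330403L08Rik.
Pdgfra: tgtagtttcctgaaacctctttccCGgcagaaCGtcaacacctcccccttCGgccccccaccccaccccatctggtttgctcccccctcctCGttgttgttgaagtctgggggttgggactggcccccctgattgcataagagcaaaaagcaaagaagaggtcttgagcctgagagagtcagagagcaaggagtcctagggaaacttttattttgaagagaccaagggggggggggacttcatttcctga
Pdgfa: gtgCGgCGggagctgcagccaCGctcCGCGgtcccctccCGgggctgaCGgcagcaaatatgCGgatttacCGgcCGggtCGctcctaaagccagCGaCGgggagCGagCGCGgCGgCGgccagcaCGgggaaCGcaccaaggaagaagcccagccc
Pdgfc: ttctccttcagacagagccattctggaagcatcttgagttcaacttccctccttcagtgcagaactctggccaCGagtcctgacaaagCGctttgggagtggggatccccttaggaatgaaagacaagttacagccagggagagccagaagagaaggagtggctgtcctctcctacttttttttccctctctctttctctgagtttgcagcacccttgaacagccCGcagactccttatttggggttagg
The Pdgfa stretch held 20 CpG dinucleotides in 157 bases with a GC content of 72.0%, and 95.6% of 32841 promoter windows of that length held fewer. The Pdgfra stretch held 4 and the Pdgfc stretch 3 in 250 bases, against a median of 6 over windows of that length. Each stretch was searched on both strands for the GC box GGGCGG, the TATA box TATAAA, the E-box CANNTG, the GATA factor motif GATAA, the NF-Y motif CCAAT and the AP-2 motif GCCNNNGGC. The E-box in the Pdgfra stretch was the single match, it overlapped no other motif searched, and 66.2% of windows of that length hold at least 1. The other motifs are absent from these windows only as spelled, and a match is no evidence of binding.

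Total counts per pool ran from 7420956 to 12251910 in the mutant pools and from 6930827 to 11797020 in the wild-type pools. Levels are given in CPM, normalised read counts brought to a common library size with TMM factors. Sf3b4 itself had 56.1, 64.2 and 60.9 CPM in the mutant pools and 77.7, 72.8 and 63.9 CPM in the wild-type pools. Its log2 fold change, -0.24 (SE 0.0918), missed the threshold (edgeR adjusted p = 0.128) but passed without wild-type replicate 3 (-0.32, edgeR adjusted p = 0.0288) and with the length and GC correction (-0.26, edgeR adjusted p = 0.046). Summed over 4 Y-linked genes, the pools called Y-positive here had 491 to 580 counts (mutant replicates 1 and 2) and 344 to 664 counts (wild-type replicates 2 and 3), while mutant replicate 3 and wild-type replicate 1 had 1 count each. Markers of neuroepithelium, which should be plentiful in a head, summed to 434 to 491 CPM in the mutant pools and 427 to 458 CPM in the wild-type pools. Of the 8 tested, Hes5, a Notch target gene of neural progenitors, fell by 0.57 on the log2 scale, a call lost without mutant replicate 1, mutant replicate 3 or wild-type replicate 2 and in the Y-positive pools. Erythroid markers summed to 74.5 to 165 CPM in mutants and 99.7 to 251 CPM in wild type, heart markers to 42.9 to 51.3 CPM in mutants and 29.1 to 89.9 CPM in wild type, and no gene of either list passed. Of 14008 genes tested, 6.52% passed the adjusted p of 0.05, 2.65% as higher and 3.88% as lower in mutants. With exon length and GC content corrected for, the split was 647 higher and 537 lower, against 371 higher and 543 lower without it.

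The receptor and the ligand of the PDGF-A axis changed in opposite directions. Pdgfra fell by 19.5% and Pdgfa was 35.6% higher in the mutant pools, while Pdgfrb, Pdgfb and Pdgfc did not pass the test. Thus 2 of 5 members passed, 1 in each direction, where 6.52% of all tested genes did. In the same 2 members the mutant pools did not overlap the wild-type pools. Over all tested genes 28.3% did not overlap, 13.8% with mutants higher and 14.4% with mutants lower. Neither Pdgfra nor Pdgfa passed without mutant replicate 1, and Pdgfra did not pass with the length and GC correction.

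**Figure D1:**
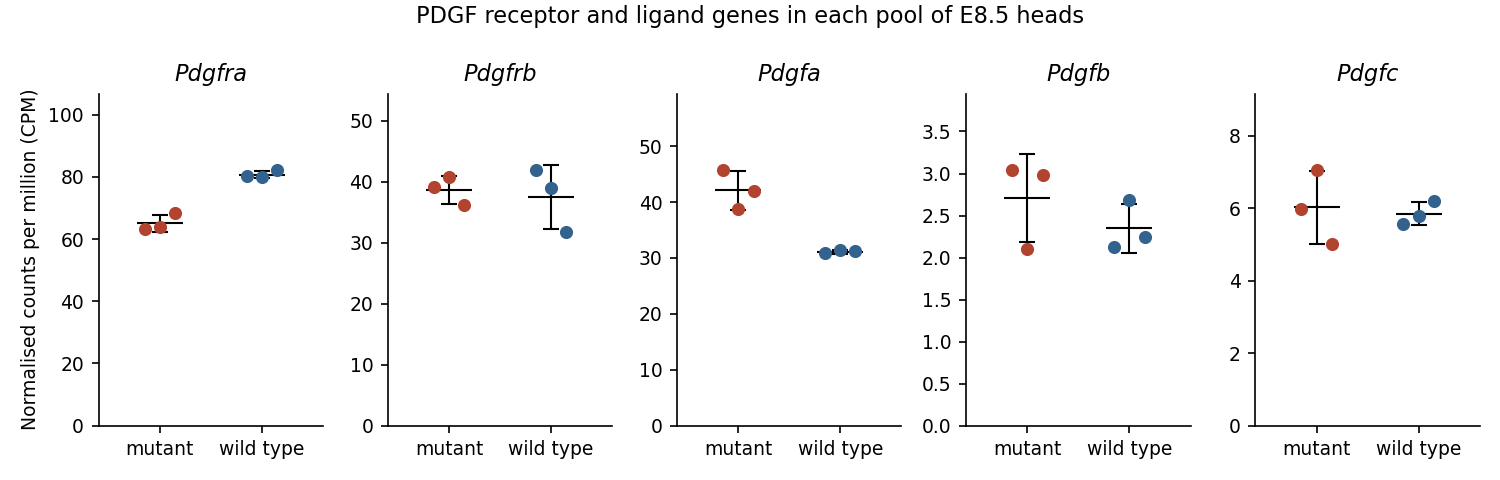
Normalised counts (CPM) of the 5 PDGF genes (y axis, linear, from 0) in each mutant pool and each wild-type pool (points), with the mean (bar) and SD (whiskers, n = 3 pools). The groups separate for Pdgfra, lower in mutants (65.1 against 80.8 CPM), and for Pdgfa, higher in mutants (42.1 against 31.1 CPM), and overlap for the other 3 genes.

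Pdgfra (ENSMUSG00000029231, mm10 chromosome 5, 75152292 to 75198215, plus strand), the receptor gene of cranial mesenchyme, was read at 63.3, 63.8 and 68.3 CPM in the mutant pools, from 771, 606 and 504 counts. The wild-type pools gave 80.2, 80.0 and 82.2 CPM, from 865, 566 and 954 counts. Every mutant pool lay below every wild-type pool, and the wild-type pools lay closer together than the mutant pools. The means were 65.1 ± 2.74 CPM in mutants and 80.8 ± 1.22 CPM in wild type (SD, n = 3 each). The log2 fold change was -0.31 (SE 0.0768, 95% interval -0.48 to -0.15, edgeR quasi-likelihood test, adjusted p = 0.0242). The call was lost without mutant replicate 1 (adjusted p = 0.17), mutant replicate 2 (0.129) or wild-type replicate 2 (0.0708), although the fold change stayed between -0.35 and -0.29. Within the 4 Y-positive pools it was -0.36 (edgeR adjusted p = 0.0324), and the remaining pools read 68.3 CPM in the mutant and 80.2 CPM in the wild type.

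Pdgfra is a long transcript, with 10024 exonic bases over all annotated isoforms, and long genes leaned lower across these libraries. The longest of 5 equal-sized length classes, which holds Pdgfra, had a median log2 fold change of -0.1, against 0.066 in the shortest. After the correction for length and GC content Pdgfra was at -0.21 (SE 0.0697) and did not pass (edgeR adjusted p = 0.0622). Opposite-strand transcripts overlap 6.21% of its exonic bases. Those named Gm42802 and Gm42803 held at most 1 count in any pool. The part of antisense reads in the counts of Pdgfra was not tested.

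In whole heads, fewer cells of a type and less RNA per cell cannot be told apart. Markers of migrating neural crest summed to 280 to 330 CPM in the mutant pools and 408 to 446 CPM in the wild-type pools, with 6 of 10 genes lower, none higher and none at 0. Of all tested genes 3.88% were lower in mutants. Sox9, Tfap2b, Itga4, Erbb3 and Ngfr, genes of crest specification, migration and glial fate, fell by 0.37, 0.95, 1.48, 0.53 and 0.71 on the log2 scale. Without mutant replicate 1 the calls of Sox9, Erbb3 and Ngfr were lost, while those of Sox10, Itga4 and Tfap2b held in every alternative run. Sox9 was also lost without mutant replicate 3 or wild-type replicate 2 and in the Y-positive pools, and Ngfr without mutant replicate 2 or wild-type replicate 2. Sox10, the transcription factor of migrating and glial crest, averaged 21.6 ± 3.33 CPM in mutants and 47.8 ± 5.92 CPM in wild type (SD, n = 3 each). Of 8 tested genes of the arch mesenchyme that crest forms, Dlx2 (-1.04) and Mef2c (-0.76), transcription factors of the pharyngeal arches, fell on the log2 scale and none rose. The calls of Dlx2 and Mef2c were each lost without mutant replicate 2 or 3, and also without wild-type replicate 2 and in the Y-positive pools for Dlx2 and without mutant replicate 1 for Mef2c. That list summed to 72.0 to 78.0 CPM in mutants and 87.5 to 119 CPM in wild type. Cranial mesenchyme markers, which both crest and mesoderm express, summed to 307 to 323 CPM in the mutant pools and 314 to 367 CPM in the wild-type pools. Of the 17 tested, Col1a2, a fibrillar collagen gene, fell by 0.55 on the log2 scale (by 0.36 with the length and GC correction, edgeR adjusted p = 0.014) and Foxc1, a transcription factor gene of head mesoderm and crest, rose by 0.37. The call of Foxc1 (edgeR adjusted p = 0.0497) was lost when any mutant pool or wild-type replicate 1 was left out, with DESeq2 and limma-voom and in the Y-positive pools, and held in 8 of 19 alternatives. The part of these shifts in the fall of Pdgfra was not tested.

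Pdgfrb (ENSMUSG00000024620, chromosome 18, 61045150 to 61085061, plus strand), the receptor gene of pericytes and other mesenchyme, had 39.2, 40.7 and 36.2 CPM in the mutant pools and 41.9, 39.0 and 31.7 CPM in the wild-type pools. The groups overlapped, and the lowest value was that of wild-type replicate 3. The log2 fold change was 0.05 (SE 0.108, 95% interval -0.18 to 0.28, edgeR adjusted p = 0.819), so the interval reaches a fold of 0.884 below and 1.21 above. Without wild-type replicate 3 the sign turned (-0.064). Pericyte and smooth muscle markers summed to 149 to 156 CPM in mutants and 140 to 186 CPM in wild type, and none of the 6 tested passed. Cspg4 and Kcnj8 of that list were not tested.

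Within a pool, Pdgfra was read at 1.62, 1.57 and 1.89 times the CPM of Pdgfrb in the mutant pools and at 1.91, 2.05 and 2.59 times in the wild-type pools. All mutant ratios lay below the wild-type ratios, if narrowly. The mean difference was -0.36 on the log2 scale, with p = 0.1 in an exact two-sided permutation test, the smallest that 3 against 3 pools allow. Pdgfra over the summed mesenchyme markers was 0.196, 0.205 and 0.223 in mutants and 0.255, 0.218 and 0.255 in wild type. Those ranges overlapped, with a log2 difference of -0.22 and an exact permutation p = 0.2. Over the mean log2 CPM of the tested markers in place of their sum, the mutant ratios (5.31, 5.41 and 6.13) lay below the wild-type ratios (6.89, 6.25 and 7.08), with a difference of -0.26 and an exact permutation p = 0.1. Adjusted over the 3 ratios tested, with the summed markers, each p is 0.2.

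Pdgfa (ENSMUSG00000025856, chromosome 5, 138976014 to 138997370, minus strand), whose product signals through PDGFRA alone, had 45.7, 38.7 and 42.0 CPM in the mutant pools, from 557, 368 and 310 counts. The wild-type pools had 30.8, 31.5 and 31.2 CPM, from 332, 223 and 362 counts. The mutant pools were all higher than the wild-type pools and more spread out. Means were 42.1 ± 3.5 CPM in mutants and 31.1 ± 0.369 CPM in wild type (SD, n = 3 each), and the log2 fold change was 0.44 (SE 0.0942, 95% interval 0.24 to 0.64, edgeR adjusted p = 0.012). After the length and GC correction it was 0.43 (edgeR adjusted p = 0.00408). The call was lost without mutant replicate 1 (0.37, edgeR adjusted p = 0.119) and in the 4 Y-positive pools (0.43, edgeR adjusted p = 0.0535). The remaining pools read 42.0 CPM in the mutant and 30.8 CPM in the wild type.

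The opposite-strand transcript 6330403L08Rik covers 26.1% of the exonic bases of Pdgfa, and no source used here says whether counting used strand. That transcript held 29, 23 and 24 counts in the mutant pools and 18, 19 and 24 in the wild-type pools. The part of antisense reads in the counts of Pdgfa was not tested. Surface ectoderm is the outer epithelium of the head. Its markers summed to 487 to 556 CPM in the mutant pools and 391 to 437 CPM in the wild-type pools, with none of the 8 at 0. Cldn6, a tight junction gene, and Perp, a desmosome gene that is also a p53 target, rose (0.52 and 1.07 on the log2 scale), and the other 6 did not pass. Of all tested genes 2.65% were higher in mutants. The call of Perp was lost without mutant replicate 3 and in the 4 Y-positive pools. The part of these epithelial markers in the rise of Pdgfa was not tested. Per pool, the CPM of Pdgfa was 0.722, 0.607 and 0.615 times that of Pdgfra in mutants and 0.384, 0.394 and 0.379 times in wild type, a comparison picked after the values were seen and given without a test.

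Pdgfc (ENSMUSG00000028019, chromosome 3, 81036416 to 81214040, plus strand), a further ligand gene of PDGFRA, encodes a latent factor that proteases must activate. It had 5.99, 7.05 and 5.01 CPM in the mutant pools (73, 67 and 37 counts) and 5.56, 5.79 and 6.20 CPM in the wild-type pools (60, 41 and 72 counts). The mutant pools spanned the wild-type range on both sides. The log2 fold change was 0.05 (SE 0.186, 95% interval -0.35 to 0.44, edgeR adjusted p = 0.907), and its sign turned without mutant replicate 2 (-0.069). The upper bound of that interval equals the fold change of Pdgfa. Pdgfc lies 15.0 Mb from Sf3b4 on the same chromosome. The CPM of Pdgfa was 7.63, 5.49 and 8.38 times that of Pdgfc in mutants and 5.53, 5.44 and 5.03 times in wild type. Mutant replicate 2 fell among the wild-type pools, and the log2 difference of 0.40 had an exact permutation p = 0.2.

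Pdgfb (ENSMUSG00000000489, chromosome 15, 79995874 to 80014977, minus strand), the ligand gene of endothelium and megakaryocytes, was the least abundant member. It had 37, 20 and 22 counts in the mutant pools (3.04, 2.10 and 2.98 CPM) and 23, 19 and 26 in the wild-type pools (2.13, 2.68 and 2.24 CPM). The groups overlapped and the interval was wide (log2 fold change 0.22, SE 0.268, 95% interval -0.35 to 0.79, edgeR adjusted p = 0.66), so no change was detectable at this depth. Endothelial markers summed to 241 to 255 CPM in mutants and 199 to 236 CPM in wild type, with positive fold changes in 11 of 12 genes and none past the threshold. Of all tested genes 50.3% had positive fold changes. Megakaryocyte markers summed to 3.11 to 3.69 CPM in mutants and 2.67 to 3.71 CPM in wild type, with Gp9 and Ppbp at 0 in every pool.

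The rest of the family is small. Pdgfd, whose product is a further latent ligand, had 62, 45 and 33 counts in the mutant pools and 52, 35 and 63 in the wild-type pools. Its log2 fold change was -0.08 (SE 0.188, edgeR adjusted p = 0.83). Pdgfrl, which encodes a receptor-like protein without a kinase, had only 16, 6 and 3 counts in mutants and 8, 9 and 15 in wild type (log2 fold change -0.36, SE 0.464, edgeR adjusted p = 0.683).

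**Figure D2:**
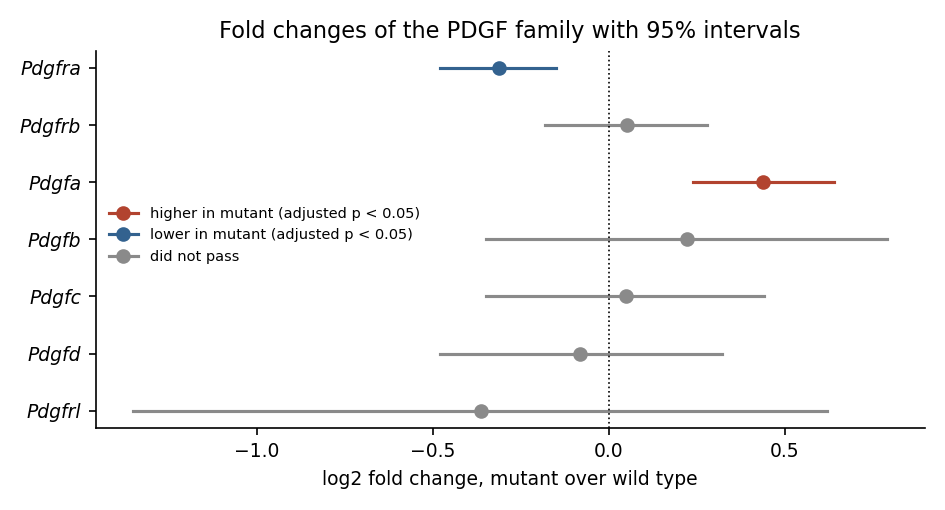
Log2 fold change of each PDGF family gene (x axis, mutant over wild type, from the edgeR fit to 3 pools each), with its 95% interval as a line. Only the interval of Pdgfra (-0.48 to -0.15) lies wholly below 0 and only that of Pdgfa (0.24 to 0.64) wholly above 0 among these 7 genes.

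Levels of different genes can be set side by side only per length. Per kilobase of exonic bases (all isoforms), Pdgfa had 13.5 ± 1.12 CPM per kb in mutants and 9.99 ± 0.118 CPM per kb in wild type, the highest of the 5 in both. Pdgfrb had 7.06 ± 0.423 CPM per kb in mutants and 6.85 ± 0.959 CPM per kb in wild type. Pdgfra had 6.49 ± 0.273 CPM per kb in mutants and 8.06 ± 0.122 CPM per kb in wild type (SD, n = 3 each). On this scale the mutant pools of the receptor genes overlapped (6.31 to 6.81 for Pdgfra and 6.60 to 7.43 for Pdgfrb), whereas in wild type Pdgfra was above Pdgfrb without overlap. With the length of the principal transcript alone, Pdgfra was above Pdgfrb in both, at 9.53 and 7.15 CPM per kb in mutants and 11.8 and 6.94 CPM per kb in wild type. Pdgfc followed with 1.18 ± 0.2 CPM per kb in mutants and 1.15 ± 0.0638 CPM per kb in wild type, and Pdgfb was last with 0.651 ± 0.126 CPM per kb in mutants and 0.565 ± 0.0704 CPM per kb in wild type. Among all tested genes, the level per kb of Pdgfa lay at percentile 72.7 in mutants and 65.4 in wild type, that of Pdgfra at 54.2 in mutants and 59.9 in wild type, and that of Pdgfb at 11.9 in mutants and 9.5 in wild type.

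The genes differ as much in structure as in level. The principal transcripts of Pdgfra and Pdgfrb have 23 exons each in genes of 45.9 and 39.9 kb. Those of Pdgfa and Pdgfc have 6 exons each, in genes of 21.4 kb and 178 kb. Pdgfb has 7 exons in 19.1 kb. Counts per gene do not show which introns were removed.

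Pdgfra stands on chromosome 5 beside Kit and Kdr, relatives that arose with it by duplication. Kit, the receptor gene of stem cell factor, starts 422.6 kb away, and Kdr, the main VEGF receptor gene of endothelium, 826.2 kb away. Kit had 57.0, 61.9 and 60.5 CPM in the mutant pools and 73.1, 72.5 and 74.8 CPM in the wild-type pools. Its groups did not overlap, as for 28.3% of all tested genes. Its log2 fold change was -0.30 (SE 0.0785, edgeR adjusted p = 0.0335), against -0.31 for Pdgfra. Kdr went the other way, with 118, 120 and 109 CPM in mutants and 102, 85.0 and 93.2 CPM in wild type (0.31, SE 0.0818, edgeR adjusted p = 0.0356). Of the 10 other tested genes within 1 Mb of either end of Pdgfra, Kit and the unclassified gene model Gm43747 (0.725 CPM in mutants and 2.17 CPM in wild type) were lower, Kdr was higher and 7 did not pass. Over all tested genes 3.88% were lower and 2.65% higher, and with so few genes the locus cannot be set apart from that share. Chic2, the nearest tested gene on the other side, was at 0.04 (SE 0.108).

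The calls at this locus depended on single pools. Those of Kit and Kdr were each lost without any 1 mutant pool or without wild-type replicate 2, that of Kit also in the 4 Y-positive pools and that of Kdr also with limma-voom. The call of Gm43747 was lost without any 1 pool except wild-type replicate 3, in the Y-positive pools and with limma-voom. After the length and GC correction Kit was at -0.22 (edgeR adjusted p = 0.059) and Kdr at 0.40 (edgeR adjusted p = 0.0016). Crest markers, lower as given above, and endothelial markers, with mostly positive fold changes, accompany these genes, and their part was not tested. The other 2 related receptor genes tested did not pass, Csf1r had too few counts to test and Flt3 was at 0 in every pool.

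**Figure D3:**
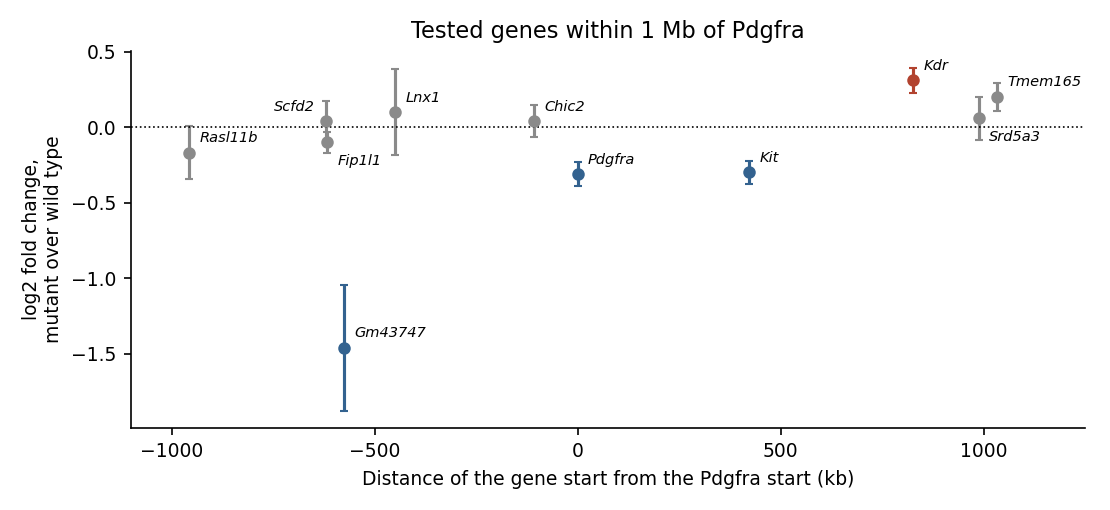
Log2 fold change, mutant over wild type (y axis, whiskers SE), of Pdgfra and the 10 other tested genes within 1 Mb of either gene end, placed by the distance of each gene start from the Pdgfra start (x axis, kb). Pdgfra and Kit sit at -0.31 and -0.30, Kdr at 0.31, Chic2 at 0.04 and Gm43747 at -1.46, with colour for an edgeR adjusted p under 0.05.

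The nearest tested neighbours of the other members mostly did not pass. Fam20c and Prkar1b, on either side of Pdgfa, were at -0.25 (SE 0.202) and 0.13 (SE 0.325). Hmgxb3, 46.2 kb from Pdgfrb, was at 0.02, and Camk2a, a neuronal kinase gene 57.0 kb away on the other side, averaged 1.67 CPM in mutants and 3.47 CPM in wild type (-1.04, SE 0.299, edgeR adjusted p = 0.0483). The call of Camk2a was lost when any mutant pool or wild-type replicate 1 or 2 was left out, and with limma-voom, and DESeq2 gave it no adjusted p. None of the 4 neighbours of Pdgfb and Pdgfc passed.

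Around the receptors, 94 genes in 8 lists cover the steps from ligand activation to the nuclear response. Of the 86 tested, 4 rose and 4 fell, where 2.65% of all tested genes rose and 3.88% fell. The lists had a median log2 fold change of 0.00, the same as over all genes. With 1 pool left out the number past the threshold ran from 1 (without mutant replicate 1) through 2 (without wild-type replicate 2), 3 (without mutant replicate 3) and 5 (without mutant replicate 2) to 9.

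None of the 6 proteases that activate PDGF ligands passed, although all had positive fold changes, as did 50.3% of all tested genes. Plau, the urokinase gene, was at 0.48 (SE 0.257, edgeR adjusted p = 0.281), with 3.12, 3.05 and 4.06 CPM in mutants and 1.95, 2.68 and 2.67 CPM in wild type. Pcsk7, a proprotein convertase gene, was at 0.13 (SE 0.0991). Of 3 genes for proteins that bind PDGFs or their receptors, 1 fell and 1 rose. Lrp1, an endocytic receptor that associates with PDGFRB, had 254, 285 and 229 CPM in the mutant pools and 370, 381 and 327 CPM in the wild-type pools (-0.49, SE 0.0885, edgeR adjusted p = 0.00415). Its groups did not overlap, as for 28.3% of all tested genes. Its transcript is long as well, and after the length and GC correction it was at -0.22 (edgeR adjusted p = 0.0587). Sparc, a matrix protein gene whose product binds PDGF-B, had 158, 159 and 164 CPM in mutants and 131, 119 and 130 CPM in wild type (0.34, SE 0.0718, edgeR adjusted p = 0.0108). That call was lost without mutant replicate 1 or wild-type replicate 2.

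Of 36 signal transducers, 1 rose, 1 fell and 34 did not pass, with a median of -0.06. Braf, a kinase that relays RAS signals to MEK, had 68.5, 70.7 and 60.5 CPM in mutants and 78.6, 103 and 91.9 CPM in wild type (-0.45, SE 0.0991, edgeR adjusted p = 0.015). Nras, a RAS gene, had 262, 249 and 235 CPM in mutants and 186, 204 and 221 CPM in wild type (0.29, SE 0.0799, edgeR adjusted p = 0.0437). The groups did not overlap for either gene, as for 28.3% of all tested genes. The call of Braf was lost without mutant replicate 1, mutant replicate 3 or wild-type replicate 2. That of Nras was lost with limma-voom, in the 4 Y-positive pools and without any 1 pool except wild-type replicate 3.

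The negative regulators gave 1 higher and 1 lower gene of 15, with a median of 0.08. Cbl, the ubiquitin ligase that sends activated receptors to degradation, had 73.7, 89.8 and 70.3 CPM in mutants and 99.1, 119 and 105 CPM in wild type (-0.46, SE 0.0981, edgeR adjusted p = 0.012). Dusp6, a phosphatase of ERK that ERK signalling itself induces, had 150, 139 and 139 CPM in mutants and 115, 108 and 113 CPM in wild type (0.35, SE 0.0714, edgeR adjusted p = 0.00899). Neither gene overlapped between the groups, as for 28.3% of all tested genes. The call of Cbl was lost without mutant replicate 1, mutant replicate 3 or wild-type replicate 2, and that of Dusp6 without mutant replicate 1.

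None of the 13 tested immediate early genes, which growth factors such as PDGF induce within minutes, passed, and their median was 0.00. Egr1 was at 0.76 (SE 0.371, edgeR adjusted p = 0.233), from 16, 15 and 11 counts in mutants and 10, 7 and 8 in wild type. Egr2 was at 0.29 (edgeR adjusted p = 0.225). Fos, Fosb, Fosl1 and Egr3 had too few counts to test. Of the 7 tested ligand genes of the related receptors none passed, the nearest being Pgf (0.55, edgeR adjusted p = 0.136) and Csf1 (0.41, edgeR adjusted p = 0.211).

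**Figure D4:**
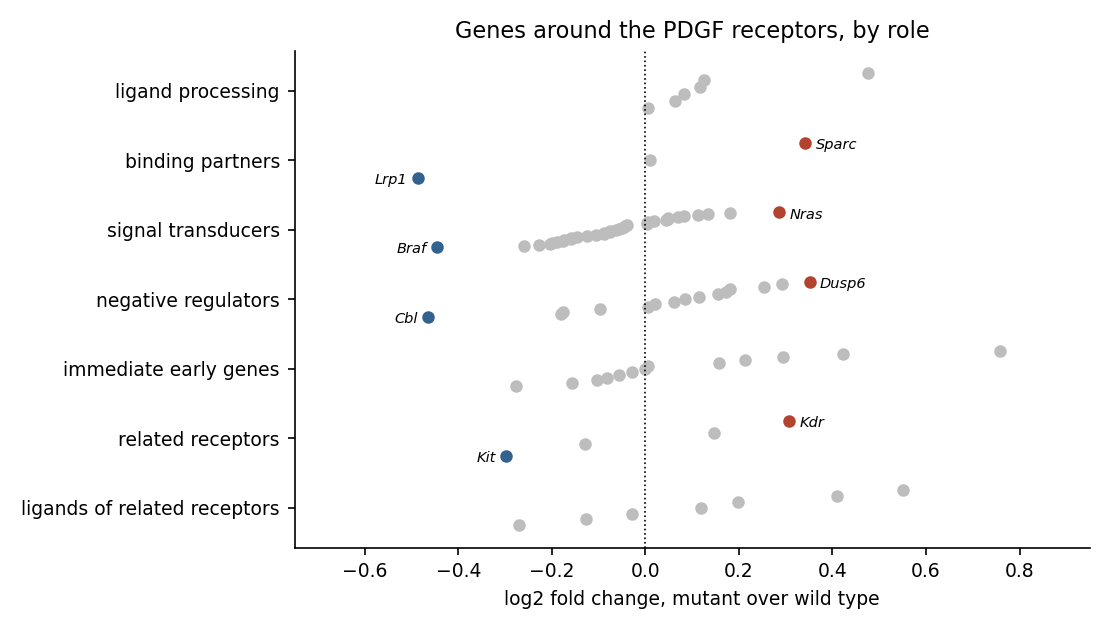
Log2 fold change, mutant over wild type (x axis), of each tested gene in 7 lists around the PDGF receptors (rows), 1 point per gene, ordered by value within a row. Coloured and named points passed an edgeR adjusted p of 0.05: Sparc, Nras, Dusp6 and Kdr were higher and Lrp1, Braf, Cbl and Kit lower, while all ligand processing genes, immediate early genes and ligands of related receptors stayed grey.

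The genes whose log2 CPM followed a member most closely over the 6 pools were sought among 9112 other genes with a mean of at least 10 CPM. For Pdgfra they were Tk1, a thymidine kinase gene of S phase (Pearson r = 0.996), Heatr1, a ribosome biogenesis gene (0.993), and Tnpo2, a nuclear import gene (0.993). Tk1 (-0.56, edgeR adjusted p = 0.00138) and Tnpo2 (-0.28, edgeR adjusted p = 0.0286) also fell, and Heatr1 was at -0.11. The call of Tnpo2 was lost without mutant replicate 1, mutant replicate 2 or wild-type replicate 2. For Pdgfa they were Tvp23b, a Golgi protein gene (0.997), Ndufb2, a respiratory complex I gene (0.985), and Rpl34, a ribosomal protein gene (0.983), of which Rpl34 rose (0.48, edgeR adjusted p = 0.00114). For Pdgfrb, Pdgfb and Pdgfc the best 3 each had r from 0.956 to 0.988. All points share their library and depth, and with so many genes and so few pools such values describe the pools only.

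**Figure D5:**
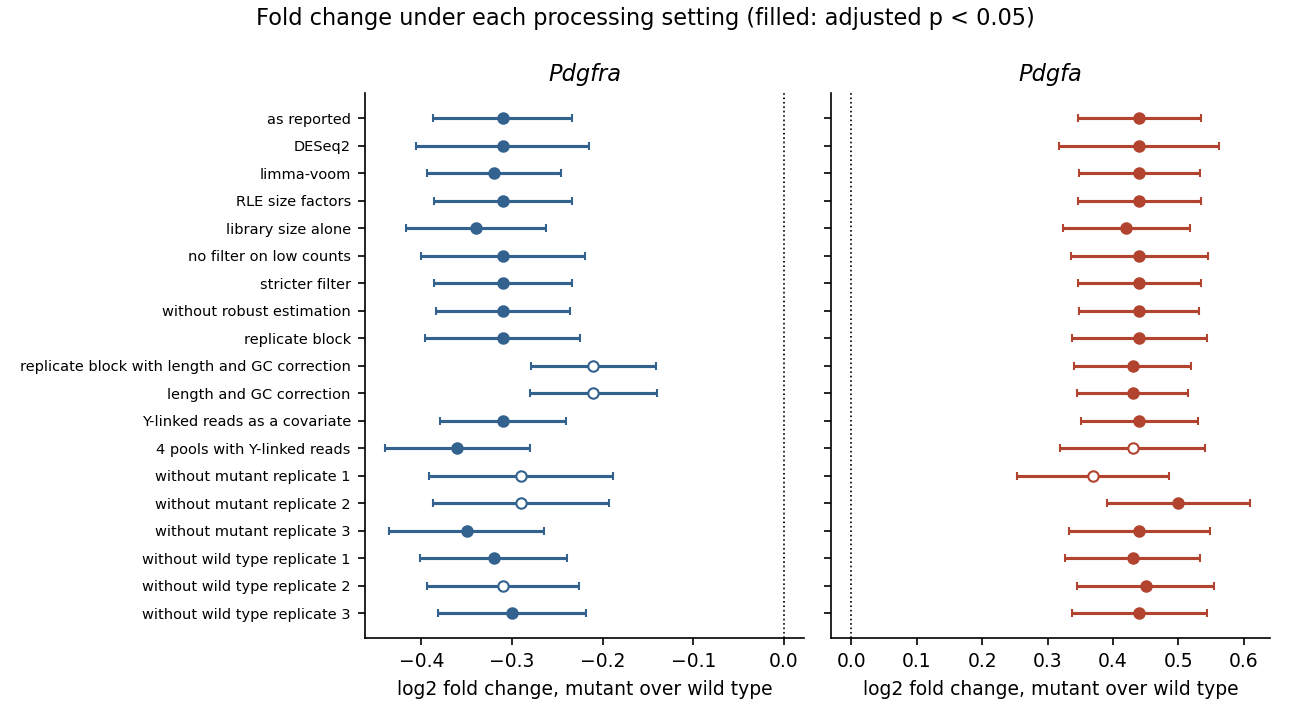
Log2 fold change of Pdgfra and Pdgfa, mutant over wild type (x axis, whiskers SE), as reported and under each alternative setting (rows), with filled points for an adjusted p under 0.05. Pdgfra stays between -0.36 and -0.21 and Pdgfa between 0.37 and 0.50 in these settings, with open points for Pdgfra without mutant replicate 1, mutant replicate 2 or wild-type replicate 2 and with the length and GC correction, with or without the block, and for Pdgfa without mutant replicate 1 and in the Y-positive pools.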

How the data were processed

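Per the labels' protocols, the 6 pools were extracted with the RNeasy micro kit of Qiagen, and libraries were TruSeq Standard Total RNA (Illumina). The deposited values are raw counts of reads per Ensembl gene, as whole numbers without normalization. The submitters' processing notes name mm10. No source used here names an aligner, counter, annotation or strand setting, so antisense transcripts or near-identical copies can share reads. Symbols, positions and exon lengths came from GENCODE M21 (GRCm38, the assembly of mm10), which matched 54495 of 54532 IDs.

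Genes were filtered with filterByExpr, scaled by TMM and tested with edgeR's quasi-likelihood test (robust, two-sided) over all 14008 genes kept, p-values adjusted by Benjamini-Hochberg and a cutoff of 0.05. The standard error is the log2 fold change divided by the root of F. Ratios within pools were compared with exact permutation tests. Scripts were tested on simulated data. There 19 of 184 calls were false, a larger share than the 0.05 at which the cutoff aims. Of 1.5-fold changes 72.3% were recovered, of 2-fold 83.3% and of 4-fold 96.9%. Changes as small as those of Pdgfra (fold 0.805) and Pdgfa (fold 1.36) were not simulated. The tools were edgeR 4.0.16, DESeq2 1.42.0 and limma 3.58.1 under R 4.3.3, and Python 3.11.15, scipy 1.17.1 and matplotlib 3.10.9. Replicate pools were not repeats of 1 library (their counts gave chi-square values of 2.81 to 9.19 per degree of freedom). The labels do not say that pools came from separate litters, so p-values measure the spread between these pools.

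The members, the gene lists and the tests were chosen with earlier results of these data known. The genes named are the members, Pdgfd, Pdgfrl, Sf3b4, Kit and Kdr; up to 6 genes of each list that passed, or else the 2 with the smallest p; the nearest tested neighbours; and the 3 most alike genes. Left out of the text are the names chosen from marker lists with no gene past the threshold, the neighbours of Pdgfb and Pdgfc, and the genes most like Pdgfrb, Pdgfb and Pdgfc. Gm43747 and genes with too few counts are named outside this rule, after their values were seen. Alternatives tried were limma-voom, DESeq2, other filters and scaling, no robust estimation, a threshold of 0.1, the replicate number as a block, a spline correction for exon length and GC content, Y-linked reads, and each pool left out.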

Additional observations from a re-analysis of the deposited data

How the results depend on the processing

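No call of a named gene changed sign in any alternative run. The number of PDGF genes past the threshold was 2, and 1 with the length and GC correction, with that correction and the replicate block, and in the 4 Y-positive pools. With 1 pool left out it ran from 0 (without mutant replicate 1) to 2, and the fold change of Pdgfra ran from -0.35 to -0.29, of Pdgfa from 0.37 to 0.50, of Pdgfrb from -0.064 to 0.15, of Pdgfc from -0.069 to 0.15, of Pdgfb from 0.11 to 0.38 and of Pdgfrl from -1.02 (without mutant replicate 1) to -0.12 (without mutant replicate 3). Pdgfra was at -0.21 with the length and GC correction, with or without the replicate block, and Pdgfa at 0.43 in the 4 Y-positive pools. Neither passed there, and the cause was not tested. The pathway lists held 8 calls, 5 with the replicate block (without Nras, Kit and Kdr) and 1 to 9 with 1 pool left out. Same-numbered pools did not deviate together (correlations -0.161, 0.0515 and -0.0598 over 14008 genes), so no pairing by number was seen. With 3 pools per group these values cannot settle whether the pools are paired. The highest correlation, 0.274, joined mutant replicate 3 and wild-type replicate 1, the pools with 1 Y-linked count each. With the block Pdgfra was at an adjusted p of 0.0493, and no pool correlated best with its own number. Among neighbours that did not pass, Chic2 was at -0.039 in the 4 Y-positive pools and from -0.055 to 0.11 with 1 pool left out, Hmgxb3 at -0.002 with library size alone and from -0.049 to 0.065, and Prkar1b from -0.045 to 0.25. All genes past the threshold numbered 914, but 535 in the 4 Y-positive pools, 1616 with these reads as a covariate and 230 to 1810 with 1 pool left out. Depth limits Pdgfb, Pdgfc, Pdgfd and Pdgfrl, read at 3 to 73 counts per pool.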

Other observations

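Csf1r, the receptor gene of macrophages and a relative of the PDGF receptor genes, was below the filter on counts. It held 5, 2 and 5 counts in the mutant pools and 1, 0 and 1 in the wild-type pools. The opposite-strand gene Hmgxb3 overlaps 15.12% of the exonic bases of Csf1r and averaged 98.0 CPM in mutants and 96.6 CPM in wild type. No source used here says whether counting used strand, and the part of Hmgxb3 reads in these counts was not tested. The sums for Csf1r were 12 counts against 2 (exact 95% interval of the ratio 1.34 to 55.2, counting error only), over totals of 29388266 counts in mutants and 29389006 in wild type. Csf1r was picked after its values were seen.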
